A study of Mus musculus with 10 samples.

Results

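The genes described here are 9 mouse forkhead genes that act in endoderm and mesoderm: Foxa1, Foxa2, Foxa3, Foxc1, Foxc2, Foxf1, Foxf2, Foxl1 and Foxq1. They were chosen by name from 21938 protein-coding genes, and each was read through the H3K27me3 peaks at its promoter (from 5 kb before to 100 bp after any start in the annotation) and over its gene body. The promoter and body together are called the gene window. A total of 63 peaks of 23606 in 6 libraries lay in these windows.

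The libraries were made by CUT&Tag, in which a transposase is led by an antibody to the histone mark and cuts the DNA nearby, from long-term hematopoietic stem cells (LT-HSCs) of mouse fetal liver at E14.5. The cells were sorted as LSK CD48-CD150+. There were 3 libraries from wild-type (WT) embryos and 3 from IκBα knockout (KO) embryos, which lacked Nfkbia, the gene of this NF-κB inhibitor, in all cells from the germline on. Replicates 1 and 2 of each genotype were read at 75 bp and replicate 3 of each genotype at 50 bp. The other 4 samples of the series, made with antibodies to IκBα, were not analysed here. The study calls the replicates independent, but its legend gives fewer experiments than libraries of each genotype, so some libraries share an experiment, and which ones is not given in the sources used here. The p-values therefore measure only the spread between these libraries, which may in part be technical. The sample labels give no strain.

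Forkhead factors bind DNA through a winged-helix domain. FoxA proteins are pioneer factors that open chromatin in the gut tube and in the liver, where they act with other endoderm factors to set the hepatic program. FoxC proteins act in paraxial mesoderm, heart, vessels and kidney, FoxF proteins act in the splanchnic mesoderm around the gut and lung, and Foxl1 marks mesenchyme under the gut epithelium. H3K27me3 is laid down by the Polycomb complex PRC2 and is found over the promoters of many developmental regulators that a lineage does not use. Blood stem cells in the fetal liver lie among hepatoblasts, which use FoxA factors.

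The libraries held between 1047 and 6013 peaks. WT replicate 3 had 1047 peaks over 1.90 Mb and KO replicate 3 had 2325 peaks over 7.61 Mb, whereas the other 4 libraries had 4160 to 6013 peaks over 18.2 to 27.8 Mb. The deposited signal is not scaled to depth, and a typical peak reached only 6 to 10 fragments at its highest point (library medians). The targeted gene Nfkbia had 0 bp under peaks in all 6 libraries, so these data give no check of the genotype. A peak in sorted cells does not tell apart fewer cells with the mark and less of the mark per cell.

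The promoters differ in their CpG content, and 3 of them are shown because they hold the contrast among the members. Peaks covered the whole stretch shown in all 6 libraries at Foxc1, in 4 of 6 at Foxa1 (none of it in WT replicates 1 and 3) and in 0 at Foxa3. The RefSeq start of Foxa1 lies 805 bp inside the gene from the outermost GENCODE start, from which all distances below are counted. That outermost start was covered in WT replicate 1 and not in WT replicates 2 and 3, so the calls at the 2 starts differ in WT replicates 1 and 2. The sequences are the 250 bases before the RefSeq start on GRCm38.p6, 5′ to 3′ on the strand of the gene, with CpG in capitals. Foxa1 lies at chr12:57546112-57546361 on the minus strand, Foxa3 at chr7:19023540-19023789 on the minus strand and Foxc1 at chr13:31806396-31806645 on the plus strand.
Foxa1: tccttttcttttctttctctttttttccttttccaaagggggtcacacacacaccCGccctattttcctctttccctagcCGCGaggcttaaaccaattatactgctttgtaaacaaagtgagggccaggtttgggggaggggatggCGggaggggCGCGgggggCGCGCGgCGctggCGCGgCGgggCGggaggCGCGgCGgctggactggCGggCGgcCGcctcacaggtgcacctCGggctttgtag
Foxa3: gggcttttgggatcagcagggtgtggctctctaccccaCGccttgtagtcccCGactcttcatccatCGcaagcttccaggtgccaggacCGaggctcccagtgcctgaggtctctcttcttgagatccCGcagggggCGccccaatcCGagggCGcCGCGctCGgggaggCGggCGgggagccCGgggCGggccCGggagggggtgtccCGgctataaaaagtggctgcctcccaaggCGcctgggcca
Foxc1: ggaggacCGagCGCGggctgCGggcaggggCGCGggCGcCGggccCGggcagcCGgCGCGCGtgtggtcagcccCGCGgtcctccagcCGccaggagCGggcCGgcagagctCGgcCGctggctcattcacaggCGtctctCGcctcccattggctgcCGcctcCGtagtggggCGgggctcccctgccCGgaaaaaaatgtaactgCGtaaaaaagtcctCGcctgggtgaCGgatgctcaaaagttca

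These 250 bases hold 21 CpG in Foxa1, 18 in Foxa3 and 29 in Foxc1, against a median of 6 over 32851 RefSeq promoters. Foxa3 was above 78.3% of those promoters in this count, and Foxa1 was above 83.7%. In all, 5 of the 9 members were matched in the RefSeq promoter table, with 7 starts. Foxf2 had 21 CpG, and the 3 Foxa2 starts had 6, 20 and 13. Over a fixed 1 kb (500 bp on each side of the GENCODE start), the observed over expected CpG ratio was 0.596 at Foxa3, 0.570 at Foxa2 and 0.473 at Foxa1, against a median of 0.553 over all coding genes. It was higher at Foxc2 (0.995), Foxc1 (0.934), Foxf2 (0.856), Foxf1 (0.849) and Foxl1 (0.769), and it was 0.244 at Foxq1. By both counts the unmarked Foxa3 lay within the range of the marked members. The core of the forkhead site, TGTTTAC, read on both strands in the 300 bases of the table (250 before and 50 after the start), occurred in 1 of the 7 member promoters, that of Foxa1, as GTAAACA. It occurred in 3.65% of all promoters, and a match of letters does not show that a factor binds there.

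H3K27me3 peaks were found at 8 of the 9 members, and Foxa3 was the exception. A promoter peak in at least 1 library was present at these 8 members, whereas 15.8% of all coding genes had one. By replicate number, 7, 8 and 3 of the 9 promoters were called in the WT libraries (10.6%, 12.9% and 3.46% of all coding genes) and 8, 8 and 7 in those of KO (12.9%, 12.2% and 8.06%). Foxa1, Foxc1 and Foxf1 were called in every WT library (3 of 9, beside 3.01% of coding genes), and these 3 together with Foxa2, Foxc2, Foxf2 and Foxq1 were called in every KO library (7 of 9, beside 7.12%). Over all 6 libraries the count was 3 of 9, beside 2.65%. In replicates 1 and 2 of both genotypes it was 7 of 9, beside 8.53%. No member was called in all 3 libraries of 1 genotype and in none of the other, a pattern that 0.0957% of coding genes had. Without WT replicate 3, 7 of 9 promoters were called in both remaining WT libraries. Over all coding genes the share also rose, from 3.01% to 9.74%, with 1 library fewer to be called in.

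Foxa1 (ENSMUSG00000035451.7, chr12:57540628-57546916, minus strand) encodes a pioneer factor of endoderm. Of its 11.3 kb window, peaks covered 8.07, 9.77 and 4.13 kb in the WT libraries (replicates 1, 2 and 3, in this order throughout), and 10.2, 11.1 and 8.64 kb in those of KO. The mark was thus present in every library, with WT replicate 3 lowest and WT replicate 2 within the KO range. All libraries held called DNA on both sides of the start. In WT replicate 1 a peak of 8.30 kb ran from 8.14 kb upstream to just past the start, and a second began 1.31 kb downstream. In the window KO replicate 2 had 1 peak of 12.5 kb, from −6.448 to 6.093 kb relative to the start, which covered 98.3% of it. The highest point of the downstream peak lay 3.70, 3.81 and 3.77 kb past the start in WT and 4.47 kb past it in KO replicate 1. In each KO library 1 peak spanned the start, with its highest point upstream of it, at −5.674, −1.499 and −0.246 kb. The peak over the start in WT replicate 1 had its highest point at −4.024 kb.

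Foxa2 (ENSMUSG00000037025.11, chr2:148042877-148046969, minus strand) acts with Foxa1 in liver specification and is needed for the node and notochord. Peaks covered 8.07, 6.81 and 1.89 kb of its 9.09 kb window in WT, and 9.09, 8.49 and 7.31 kb in KO. WT replicate 1 lay within the KO range and WT replicate 2 just below it, and WT replicate 3 held a single peak of 1.89 kb inside the gene with none on the promoter. In KO replicate 1 a single peak of 26.2 kb ran from 7.17 kb upstream to 19.1 kb downstream of the start, the 15th strongest of 4904 in that library. In both genotypes called DNA reached past the gene end into 9030622O22Rik, a long noncoding RNA gene on the same strand. Within 20 kb downstream of the start, peaks covered 16.7 and 17.1 kb in WT replicates 1 and 2. They covered 19.1 and 17.35 kb in KO replicates 1 and 2. Both replicate 3 libraries were lower, with 1.89 kb in WT and 6.735 kb in KO. The highest point of the peak over the gene lay 3.32, 3.28 and 3.34 kb past the start in the WT libraries and 3.37 kb past it in KO replicate 2, against 8.68 and 0.923 kb in KO replicates 1 and 3.

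Foxa3 (ENSMUSG00000040891.6, chr7:19013284-19023538, minus strand) encodes the FoxA factor that stays high in adult hepatocytes. Peaks covered 0 kb of its 15.3 kb window in each of the 6 libraries, and none lay within 20 kb of its start. The FoxA genes thus split into a marked pair and an unmarked gene in both genotypes. The absence of a peak means that the locus was not among the top 0.5% of enriched blocks kept by the peak caller, not that the mark was absent.

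**Figure D1:**
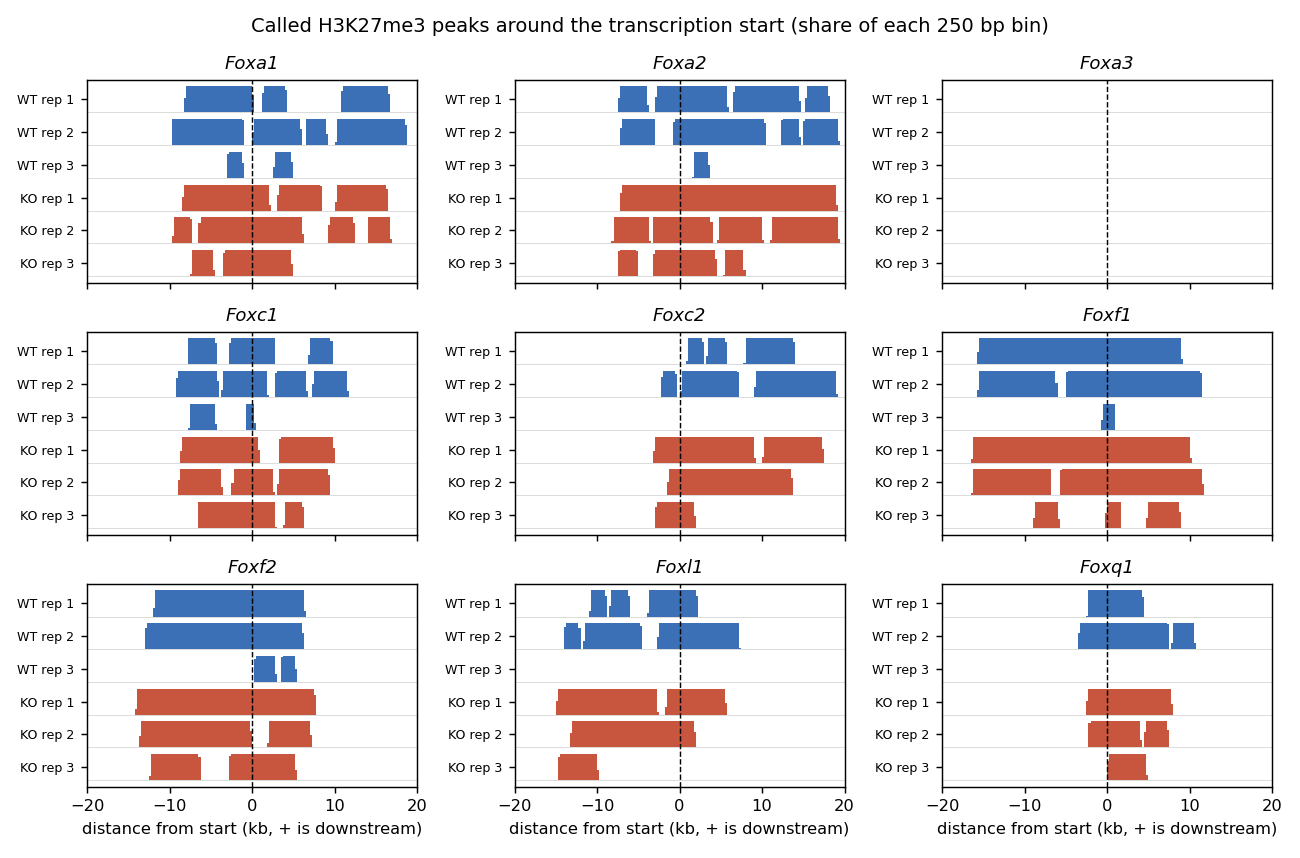
Called peaks within 20 kb of the start of each gene (x axis, kb, downstream to the right), as the covered share of 250 bp bins, with 1 line per library (WT blue, KO red). Foxf1 and Foxf2 carry long upstream arms, Foxa2 and Foxc2 extend mainly downstream, Foxa3 is empty, and both replicate 3 libraries hold the shortest stretches at Foxf1.

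Foxc1 (ENSMUSG00000050295.4, chr13:31806633-31812476, plus strand) encodes a factor of mesoderm, eye and vessels. Peaks covered 6.17, 9.32 and 1.63 kb of its 10.8 kb window in WT and 8.44, 8.94 and 9.64 kb in KO. WT replicate 2 lay between KO replicates 2 and 3, and the other WT libraries lay below all KO libraries. The start itself was covered in all 6 libraries, also in WT replicate 3, where 2 short peaks of 3073 and 1075 bp were called. Called DNA fell in up to 3 blocks: 1 between about 9.18 and 3.67 kb upstream, 1 over the start and 1 beyond the first 2.77 kb downstream. The block upstream was apart from the one over the start in all 3 WT libraries and in KO replicate 2, with gaps of 1.59, 0.53, 3.69 and 1.299 kb, and it was fused with it in KO replicates 1 and 3. Within the window the third block was called in WT replicate 2 and in 3 of 3 KO libraries. In WT replicate 1 it was called only past the gene end.

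Foxc2 (ENSMUSG00000046714.7, chr8:121116171-121118895, plus strand), a factor of lymphatic valves and axial mesoderm, was the less evenly marked of the FoxC pair. Peaks covered 1.76 and 4.45 kb of its window in WT replicates 1 and 2 and 0 kb in WT replicate 3, and 5.84, 4.10 and 4.82 kb in KO. WT replicate 2 lay within the KO range, and the other WT libraries lay below it. The start was covered in 0 of 3 WT and 3 of 3 KO libraries, a pattern that 0.141% of all coding genes had and that no other member had. In WT replicate 2 the uncovered stretch over the start was only 0.47 kb long, from −0.283 to 0.188 kb relative to the start, and in WT replicate 1 the peak began 0.965 kb downstream. That WT replicate 1 peak had a total signal (fragment coverage summed along a peak) of 7550, near the smallest called in the library (6616).

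Foxf1 (ENSMUSG00000042812.5, chr8:121084386-121088144, plus strand), which is needed for lung and gut mesenchyme, carried 1 of the longest marked stretches. In WT replicates 1 and 2 peaks covered 8.76 and 8.75 kb of the 8.76 kb window, and in KO replicates 1 and 2 they covered 8.76 kb in each. Both replicate 3 libraries were far lower, with 1599 bp in WT and 1899 bp in KO, so the division at Foxf1 followed the replicate number and not the genotype. The peak of WT replicate 1 ran for 24.7 kb and ranked 4th of 4160 by total signal, and that of KO replicate 1 ran for 26.3 kb and ranked 14th of 4904. In KO replicate 3 the peak over the start ranked 2178th of 2325 and had a maximum of 7 fragments. The part of read length and peak number in this split was not tested.

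Foxf2 (ENSMUSG00000038402.2, chr13:31625816-31631403, plus strand), a factor of gut and oral mesenchyme and brain pericytes, had high total signal in every library. Peaks covered all 10.6 kb of its window in WT replicates 1 and 2 and in KO replicate 1. They covered 8.54 kb in KO replicate 2, 8.08 kb in KO replicate 3 and 41.6% of the window in WT replicate 3. The strongest peak lay above 96.8% of all peaks of its own library by total signal in every library, the narrowest such range among the members. By maximum signal, the highest coverage in a peak, the same peaks ranged from percentile 31.2 in KO replicate 3 to 97.5 in WT replicate 1. The Foxf2 promoter was not called in WT replicate 3. The arm upstream of the start reached 11.8 to 14.1 kb in replicates 1 and 2 of both genotypes. In KO replicate 2 called DNA stopped 0.09 kb before the start and resumed 1.96 kb after it.

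Foxl1 (ENSMUSG00000097084.1, chr8:121127940-121130644, plus strand) was covered over 5.97 and 5.79 kb in WT replicates 1 and 2 and over 6.56 and 6.90 kb in KO replicates 1 and 2. Neither replicate 3 library had a peak in its window, so here too the libraries divided by replicate number. Foxq1 (ENSMUSG00000038415.10, chr13:31556134-31560976, plus strand), a factor of epithelia such as hair and stomach, was covered over 6.69 and 8.25 kb in WT replicates 1 and 2 and over 7.22, 6.55 and 4.73 kb in KO. WT replicate 3 had no peak there, and the WT values of the other libraries fell within or above the KO range. The mark at Foxq1 lay mostly downstream of the start: it reached 2.23 to 3.41 kb upstream in replicates 1 and 2, while in KO replicate 3 the peak began 0.065 kb past the start.

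The members were next compared with all other peaks of their library by total signal. The strongest peak at each member ranked in the top 10% of its library in 30 of 44 combinations of gene and library, with peaks that reach both the Foxc2 and Foxl1 windows counted for both. The median percentile was 89.1, 93.6 and 71.0 in the WT libraries, by replicate number, and 94.7, 97.2 and 96.8 in those of KO. These medians hold only members with a peak, which were 8 in each library of replicates 1 and 2, 5 in WT replicate 3 and 7 in KO replicate 3. The lowest were Foxf1 in KO replicate 3 (6.32) and Foxc2 in WT replicate 1 (13.0). Maximum signal ranged from 6 to 17 over the 44 strongest peaks, beside the library medians of 6 to 10. Over the 44 strongest peaks the median percentile was 94.4 by total signal, 94.1 by width and 79.5 by maximum signal. These peaks were picked as the strongest at each gene by total signal, which favours long peaks, and were set against all peaks, so the order of these percentiles is partly built in. In KO replicate 2 the strongest peak of Foxa1 was above 96.5% of peaks in total signal and above 97.9% in width but above only 39.8% in maximum signal.

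**Figure D2:**
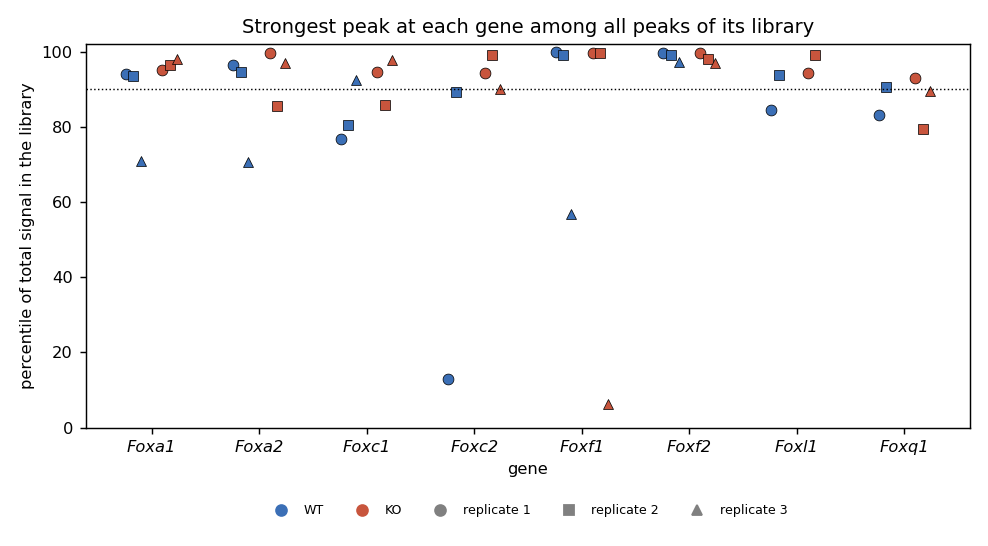
Percentile of the strongest peak at each gene among all peaks of its library by total signal (y axis), for WT (blue) and KO (red), with the replicate shown by the marker; the dotted line is at 90. Foxf2 lies above 96.8 in all 6 libraries, while Foxf1 in KO replicate 3 (6.32) and Foxc2 in WT replicate 1 (13.0) lie far below the rest.

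Peaks of the 6 libraries that shared at least 1 bp were joined into 6953 regions, and 8 of these touched a member. The region of Foxf1 (chr8:121068096-121095998) spanned 27.9 kb and was the 55th widest, and that of Foxa2 (chr2:148027679-148054991) spanned 27.3 kb and was the 59th widest. Foxc2 and Foxl1 fell in 1 region of 22.1 kb once the libraries were joined (chr8:121113057-121135201). Foxf2 had 21.7 kb (chr13:31611760-31633499), Foxa1 18.9 kb (chr12:57537805-57556670) and Foxq1 11.3 kb (chr13:31552727-31563986). Foxc1 had 2 regions, 1 of 11.9 kb over its start (chr13:31797454-31809394) and 1 of 8.79 kb from its 3′ part outward (chr13:31809401-31818188). By width, 7 of the 8 lay at percentile 91.1 or higher among all regions, and the second Foxc1 region lay at 84.8.

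Of the members, 6 sit in 2 clusters, and the mark was uneven between the neighbours. On chromosome 8, the 9.04 kb between Foxc2 and Foxl1 were covered by 69.8%, 78.8% and 0% in WT and by 87.3%, 100% and 0% in KO. The 28.0 kb between Foxf1 and Foxc2, which hold the coding gene Mthfsd, were covered by 18.9%, 34.4% and 0% in WT and by 33.5%, 32.9% and 24.8% in KO. On chromosome 13, the 64.8 kb between Foxq1 and Foxf2 were covered by 18.2%, 28.1% and 0% in WT and by 26.3%, 24.8% and 13.5% in KO. The 175.2 kb between Foxf2 and Foxc1 were covered by 2.18% to 6.39% in the 6 libraries. Each marked domain on chromosome 13 was thus separate from the next, while at Foxc2 and Foxl1 the libraries differed. Only in KO replicate 2 did 1 peak span the starts of both genes. In WT replicate 2 and KO replicate 1 a peak from Foxc2 reached into the Foxl1 promoter, with a gap of 1.92 and 1.15 kb before the next peak, and in WT replicate 1 the peaks of these genes were separate.

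Several annotated genes lay in reach of the same regions, and CUT&Tag has no strand, so peaks over a shared start cannot be assigned to 1 gene. Fendrr, a long noncoding RNA gene needed for heart and body wall development, starts 1.28 kb from Foxf1 on the opposite strand (chr8:121054882-121083110), and its promoter was called in all 6 libraries. The noncoding gene 1700018A04Rik starts 0.024 kb from Foxf2 on the opposite strand and was also called in all 6. The coding gene A530084C06Rik lies antisense over Foxq1 and was called in the same 5 libraries. Mthfsd had a promoter peak in 0 of 3 WT and 2 of 3 KO libraries (replicates 1 and 3), where the upstream end of the Foxc2 peak reached into its promoter. The others were the noncoding or small RNA genes Gm11377, Gm11378, Gm27516, Gm11379, Gm27420, Gm27530 and 9030622O22Rik, and Gm20388, a readthrough model that contains the whole chromosome 8 cluster and whose promoter had no peak.

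To ask whether the forkhead genes carried the mark over a different length without IκBα, the covered length of each window was compared between genotypes with an exact two-sided permutation test over the 20 assignments of the libraries. The mean was higher in KO at 8 of 8 marked members in kb, and at 5 of 8 as a share of all DNA covered in a library, by which Foxa1, Foxf1 and Foxf2 were lower in KO. The difference was 2.67 kb at Foxa1 (7.32 ± 2.90 in WT and 9.99 ± 1.25 in KO, SD, n = 3 each), 2.71 kb at Foxa2 (5.59 ± 3.27 and 8.30 ± 0.908), 3.30 kb at Foxc1 (5.71 ± 3.86 and 9.01 ± 0.602) and 2.85 kb at Foxc2 (2.07 ± 2.24 and 4.92 ± 0.874). It was smaller at Foxq1 (1.19 kb, from 4.98 ± 4.38 and 6.17 ± 1.29), Foxl1 (0.565 kb, from 3.92 ± 3.40 and 4.49 ± 3.89), Foxf2 (0.543 kb, from 8.53 ± 3.57 and 9.07 ± 1.34) and Foxf1 (0.104 kb, from 6.37 ± 4.13 and 6.47 ± 3.96). The genotypes overlapped at all 8, and none of the differences passed the test. Within same-numbered pairs of libraries, KO was higher in all 3 pairs at Foxa1 and Foxa2 (2 of 8 members, beside 12.2% of the 3847 coding genes with a peak), in 1 pair at Foxf2 and in 2 pairs at the other 5, and 3 pairs allow no p below 0.25. The exact permutation p was 0.2 at Foxa1, Foxa2 and Foxc2, 0.3 at Foxc1 and 0.6 to 1 at the others, with an adjusted p of 1 over 3847 coding genes with a peak for each. With 3 libraries against 3 the smallest possible p is 0.1, so no gene could pass 0.05.

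Longer cover in KO was also the more common direction over all genes. The median difference was 1.93 kb over the 8 members and 0.544 kb over the 3847 genes, of which 66.3% had a higher mean in KO. As a share of all DNA covered in a library, the medians were 14.1 bp per Mb over the members and 15.4 bp per Mb over all genes. Every KO library exceeded every WT library at 0 of the 8 members, beside 1.59% of the 3847 genes, and the reverse held at 0 of 8, beside 0.078%. WT replicate 3 had the lowest cover, or shared it at 0, at 8 of 8 members. Without it, Foxa1, Foxa2, Foxc1 and Foxc2 stayed higher in KO (by 1.07, 0.859, 1.26 and 1.82 kb), Foxf1, Foxf2, Foxl1 and Foxq1 turned lower in KO (−2.28, −1.52, −1.40 and −1.303 kb), and the median was −0.222 kb over the members and −0.559 kb over all genes. Within the 75 bp libraries, replicates 1 and 2, the differences were 1.75, 1.35, 0.948 and 1.86 kb at Foxa1, Foxa2, Foxc1 and Foxc2. They were 0.847 kb at Foxl1, 0.0055 kb at Foxf1, −1.02 kb at Foxf2 and −0.585 kb at Foxq1.

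**Figure D3:**
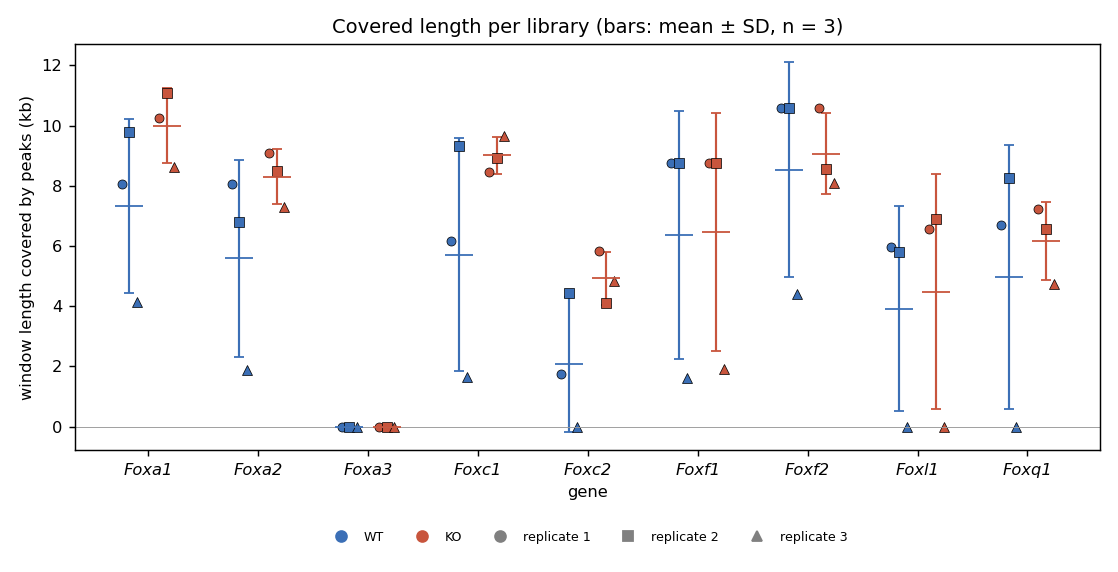
Length of each gene window covered by peaks (y axis, kb) in WT (blue) and KO (red), with 1 point per library, the replicate shown by the marker, and the mean ± SD (n = 3) as bars. The triangles of replicate 3 are the lowest WT points wherever the mark was called, and the genotypes overlap at every gene.

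For signal, the comparison used the 718 regions with a call in every library, 5 of which belong to members. Values are log2 total signal minus the median of these 718 regions in the library. On this scale Foxa1 had 0.85, 1.11 and 0.99 in WT and 1.05, 0.88 and 1.43 in KO, a difference between genotypes of 0.13 (SE 0.31). Foxf2 had 1.65, 1.26 and 1.46 in WT and 1.71, 1.39 and 1.56 in KO, a difference of 0.09 (SE 0.31). The values of these genes were close in all libraries. Every member region was above the median of the 718 regions in its library except in 1 case, Foxf1 in WT replicate 3. Foxc1 had 0.39, 0.50 and 1.19 in WT and 0.46, 0.60 and 1.07 in KO, a difference of 0.02 (SE 0.35), with both replicate 3 libraries highest.

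Foxa2 had 2.03, 1.43 and 0.10 in WT and 1.80, 1.62 and 1.52 in KO, a difference of 0.46 (SE 0.46). Foxf1 had 1.94, 1.95 and −0.05 in WT and 1.82, 2.08 and 0.97 in KO, a difference of 0.34 (SE 0.55). At both genes WT replicate 3 was the lowest, and without it the differences were −0.07 at Foxa2 and −0.31 at Foxf1. The adjusted p from limma with Benjamini-Hochberg adjustment over the 718 regions was 0.993 for each of the 5 regions. No region of the 718 passed (0%), and 8 had an unadjusted p under 0.05, none of them at a member. The median difference over all 718 regions was −0.02. The 3 other member regions, of Foxq1, the distal part of Foxc1, and Foxc2 with Foxl1, lacked a call in WT replicate 3 and were left out of this test.

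**Figure D4:**
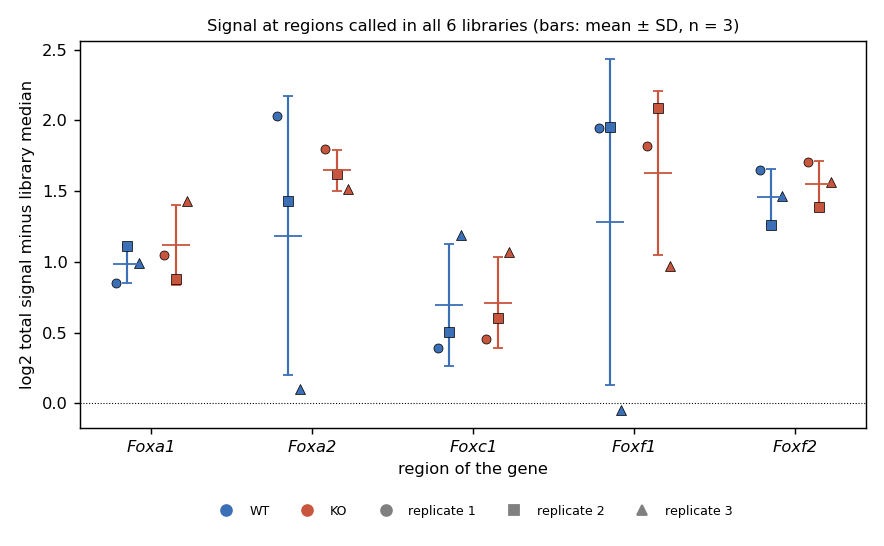
Log2 total signal of the 5 member regions called in all 6 libraries, minus the median of the 718 such regions in each library (y axis), for WT (blue) and KO (red), with the replicate shown by the marker and the mean ± SD (n = 3) as bars. The points overlap between genotypes at every gene, and WT replicate 3 is set apart at Foxa2 (0.10) and Foxf1 (−0.05).

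The rest of the forkhead family was read in the same way. Of 12 forkhead genes used in many cell types, such as Foxo1, Foxo3, Foxp1 and Foxk1, 0 had a promoter peak in any library, near the background, in which 84.2% of coding genes had none. Of the other 23, 4 were called in all 6 libraries (Foxn4, Foxi3, Foxl2 and Foxb2), 5 in none (Foxr1, Foxi1, Foxn1, Foxp3 and Foxr2) and 14 in replicates 1 and 2 of both genotypes. In all 6 libraries the share was 11.4% of the other 35 forkhead genes together, 17.4% of these 23 alone and 33.3% of the members. In those 4 libraries it was 40%, 60.9% and 77.8%, in the same order. This comparison is a description, since the members and the widely used genes were grouped by known role.

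By the share of the window covered in the 6 libraries, the other forkhead gene nearest to Foxa1, Foxa2 and Foxf2 was Foxl2, which acts in the ovary and eyelid, at Euclidean distances of 32.0, 22.3 and 29.3 percentage points. Foxl2 had 100%, 84.1% and 25.5% in WT and 85.2%, 91.6% and 73.8% in KO, against 88.7%, 74.9% and 20.8% and 100%, 93.4% and 80.4% at Foxa2. The nearest to Foxc1 was Foxe1, a thyroid factor, at 37.1 points. The nearest to Foxf1 was Foxd1, a factor of kidney stroma, at 50.7 points. All of these profiles share the low value of WT replicate 3, and the likeness says nothing of shared control.

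Genes that work with these factors in endoderm and mesoderm were read beside them. Of 23 such genes, 9 had a promoter peak in all 6 libraries (beside 2.65% of all coding genes), 17 in every KO library (beside 7.12%) and 10 in every WT library (beside 3.01%). The share was thus higher in KO over all genes too. The 4 signals, Shh, Ihh, Bmp4 and Wnt5a, were all called in every KO library, and Bmp4 was also called in every WT library. Of the 11 endoderm and liver factors, 5 were called in all 6 libraries, Gata4, Gata6, Onecut1 and Cdx2 among them, and 3 had no promoter peak in any, Hnf4a and Hhex among them. Hnf4a is, like Foxa3, part of the hepatocyte network, and Hhex is also used in blood progenitors. Of the 8 mesoderm factors, 3 were called in all 6, Tbx1 and Nkx2-5 among them, 0 had no promoter peak at all, and the other 5 were called in some of the libraries.

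The labelled cell type was set against the mark. Of 10 genes used in blood stem and progenitor cells, among them Kit, Runx1, Tal1 and Meis1, 0 had a promoter peak in any library. The count was also 0 for 6 hepatoblast genes (Alb, Afp, Apoa1, Apob, Ttr and Serpina1a) and for 4 erythroid genes. As 84.2% of all coding genes had no promoter peak in any library, counts of 0 in lists this short lie near the background. A promoter peak was present at 1 of 3 macrophage genes (C1qa, in WT replicates 1 and 2 and KO replicate 2) and at 1 of 4 endothelial genes (Kdr, in WT replicate 2). As the mark and not RNA was measured, the lack of a peak at hepatoblast genes does not measure how many hepatoblasts the sort held. Their part in the unmarked state of Foxa3 was not tested.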

How the data were processed

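H3K27me3 CUT&Tag peaks of 3 WT and 3 KO libraries were read as deposited. Per the labels and methods, the authors trimmed reads (Trim Galore 0.6.6), aligned them to GRCm38 with Bowtie2 2.4.4, removed duplicates, multi-mapped reads and those with mapping quality under 20, and called peaks per library with SEACR 1.3 (stringent, no IgG, top 0.5%, blacklist removed). The deposited signal, total and maximum fragment coverage per peak, is unscaled and rises with depth, and no read total was used. Gene models were GENCODE M21 on GRCm38, and 0 peaks lay beyond a chromosome end.

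A promoter peak needed 1 bp of overlap. Covered length was tested by exact permutation, with Benjamini-Hochberg adjustment over 3847 coding genes. Log2 total signal, centred in each library on the median of the 718 regions called in all 6, was tested with limma 3.58.1 (R 4.3.3) over these regions. Scripts in Python 3.11.15 were tested on simulated data. The named genes were the 9 members, genes in reach of their regions, forkhead genes called in all 6 libraries or nearest in profile, and partner genes called in all 6 or none. Further forkhead, signal and marker genes spell out a count and were named after their values were seen. The members and gene lists were chosen with earlier results of these data known. Same-numbered WT and KO libraries deviated together over the 718 regions (r of 0.277, 0.315 and 0.479 for replicates 1, 2 and 3). Pairs of different number had r of −0.44 to 0.27, the highest for WT replicate 2 with KO replicate 1. As each same-numbered pair was above 0.1, the numbers were treated as pairs in an alternative. WT replicate 2 with KO replicate 1 and WT replicate 1 with KO replicate 2 (r of 0.116) also passed 0.1. This rule therefore does not single out the same-numbered pairs. Other alternatives changed peak number, promoter, overlap, scaling, measure, merging and libraries. Some genes of the partner list enter its counts but are not reported here by name.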

Additional observations from a re-analysis of the deposited data

How the results depend on the processing

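In the limma test of region signal, 0 member regions passed an adjusted p of 0.05 under any alternative run, also with the replicate block (Foxa2 0.46, SE 0.35, adjusted p 0.907, and 0 of 718 regions). The exact test of covered length could not pass under any of them (smallest p 0.1, and 0.25 with 8 sign flips over same-numbered pairs), so its count of 0 says nothing of stability. The number of member promoters called in every WT library was 3 (3.01% of coding genes). It was 5 with the gene body included (3.85%), which added Foxa2 and Foxf2, and 7 with replicates 1 and 2 only (9.74%). Leaving out 1 library gave 3 to 7 in WT (3.01% to 9.74%), the 7 without WT replicate 3, and 7 to 8 in KO (7.12% to 10.7%). With the same number of top peaks, WT lost Foxc1 (2 members, 1.26%) and KO lost Foxf1 and Foxq1 (5 members, 1.92%). The other settings gave 2 to 4 in WT (1.35% to 3.09%) and 5 to 8 in KO (3.52% to 10.7%). Foxa1 left the WT set with a promoter of 1 kb on each side and with peaks above the library median, and Foxf1 left the KO set with peaks above the median. Foxf1 and Foxq1 left it with 500 bp of cover required.

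Differences of region signal turned lower in KO, on the log2 scale, at Foxa1, Foxf2 and Foxc1 with scaling by the total signal of all peaks (−0.11, −0.15 and −0.22), which moved the median of all regions from −0.02 to −0.26. They did so at Foxa1, Foxf2, Foxa2 and Foxf1 with the mean signal per covered bp (−0.0021, −0.11, −0.14 and −0.10) and with the maximum signal (−0.18, −0.13, −0.29 and −0.13). With replicates 1 and 2 only, Foxa1 had −0.0041 and Foxa2 −0.0027. Leaving out 1 library gave −0.0028 to 0.26 at Foxa1, −0.071 to 0.89 at Foxa2, −0.14 to 0.28 at Foxc1 and −0.31 to 0.69 at Foxf1. The negative values came without WT replicate 3 at Foxa2 and Foxf1, without KO replicate 3 at Foxa1, and without WT replicate 1 or 2 or KO replicate 3 at Foxc1.

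Differences of covered length turned lower in KO at Foxf1 and Foxq1 with the same number of top peaks per library (−0.529 and −0.995 kb), at Foxf2 and Foxq1 with replicates 1 and 2 only (−1.02 and −0.585 kb), and at Foxa1, Foxf1 and Foxf2 as bp per Mb of all covered DNA (−303.4, −210.2 and −464.9). Leaving out 1 library gave −2.28 to 2.39 kb at Foxf1, −1.52 to 1.57 kb at Foxf2, −1.40 to 2.81 kb at Foxl1 and −1.303 to 2.82 kb at Foxq1. Each lowest value came without WT replicate 3. Foxf1 and Foxl1 were also lower in KO without KO replicate 1 or 2, and Foxf2 without KO replicate 1. Foxa2, Foxc1 and Foxc2 kept a higher mean in KO in every setting of covered length. At Foxa2 the difference per Mb of all covered DNA was only 12.8 bp, below the median of 15.4 over all genes. The share of all genes that kept their direction was not counted. The cause of these changes was not tested. Maxima of 6 to 17 fragments and 3 libraries a group limit the precision. The limma test was tried on simulated shifts of set sizes only, and the smallest difference that it could detect was not determined.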

Other observations

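Among the forkhead and partner genes, 2 were called in every WT library and in only 2 of 3 KO libraries: Foxj1, a factor of motile cilia, and Twist1, a factor of mesenchyme. Over all coding genes 0.296% had this pattern. These 2 genes were picked after their values were seen, and both lacked a promoter peak in KO replicate 2 alone. No member showed this order of calls, which at this background says nothing of the members.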
